A study of Mus musculus with 12 samples.

Results

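Arginine is drawn on by competing enzymes, and 8 genes of its use, synthesis and uptake were examined across the 4 groups: Nos2, Arg1, Arg2, Cps1, Otc, Ass1, Asl and Slc7a2. They are 8 of 21878 genes in the count table, chosen by role while the fitted differences of these same counts between the groups were already known, so their own values are given as a description. All 8 passed the filter on low counts. Total RNA was sequenced from 12 libraries whose labels name liver tissue and Hepa1-6, a line derived from a mouse hepatoma. There were 3 libraries each of IFNa (mIFNalpha in the labels), antiPD1 (antibody blocking the T cell checkpoint PD-1), combination (both agents) and untreated. All groups shared the cell line and tissue labels; the labels give no dose, time, strain or age, nor whether a library came from a culture or from a tumor in an animal.

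Nitric oxide synthase turns arginine into nitric oxide and citrulline, while arginase splits it into ornithine and urea. In periportal hepatocytes arginase closes the urea cycle, in which Cps1, Otc, Ass1 and Asl carry ammonia nitrogen through citrulline and argininosuccinate to arginine. Activated mouse macrophages express the inducible synthase Nos2 or the cytosolic arginase Arg1, depending on the stimulus, and use of arginine by either enzyme can limit the supply to nearby T cells.

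On mm10 with GENCODE M21 annotation, each gene is protein coding. Nos2 lies on chromosome 11 at 78920787 to 78960254 (plus strand), Arg1 on chromosome 10 at 24915221 to 24927484 (minus) and Arg2 on chromosome 12 at 79130777 to 79156301 (plus). Cps1 lies on chromosome 1 at 67123026 to 67231259 (plus), Otc on chromosome X at 10252305 to 10321024 (plus) and Ass1 on chromosome 2 at 31470207 to 31520672 (plus). Asl lies on chromosome 5 at 130011258 to 130029247 (minus) and Slc7a2 on chromosome 8 at 40862396 to 40922308 (plus). Exons of Arg2 share 285 of 1428 bases with Vti1b and 116 with Gm48780, both on the other strand, and exons of Slc7a2 share 635 of 9135 bases with Gm26584. The strand setting of the counting is not known, so reads in the shared bases cannot be assigned to a strand.

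The RefSeq promoter table (GRCm38.p6) held 2 of the 8 genes, Ass1 and Otc. Their upstream bases are shown because these urea cycle genes followed a similar course across the libraries, described below. For Ass1 the 187 bases chr2:31470020-31470206 (plus strand) are given, up to the annotated gene start, and for Otc the 250 bases chrX:10252055-10252304 (plus strand). Capitals mark the single motif match in each.
Ass1: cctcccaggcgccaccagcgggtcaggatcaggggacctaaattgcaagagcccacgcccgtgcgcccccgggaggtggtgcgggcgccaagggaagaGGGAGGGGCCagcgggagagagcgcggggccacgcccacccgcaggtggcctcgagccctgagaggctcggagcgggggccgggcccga
Otc: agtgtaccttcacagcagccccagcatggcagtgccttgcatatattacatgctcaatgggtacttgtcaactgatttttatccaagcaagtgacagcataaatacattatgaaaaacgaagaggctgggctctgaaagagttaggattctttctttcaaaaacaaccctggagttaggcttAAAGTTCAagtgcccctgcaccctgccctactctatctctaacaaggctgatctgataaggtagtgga

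The Ass1 window was rich in G and C (75.4%) and held a match to the kappaB pattern (GGGA, any 4 bases, CC), whose first base lies 152 bases before the RefSeq start. That pattern occurs in 12.8% of 32851 promoter windows of 187 bases. The Otc window had 43.6% G and C and held a match to the HNF4 core AAAGTNCA, 68 bases before the start. This core occurs in 3.53% of the promoter windows of 250 bases. Both strands were searched, and the matches overlapped no other motif. No match to the ISRE core (GAAA, any 2 bases, GAAA), the GAS pattern TTCNNNGAA, the CEBP half-palindrome TTGCNNAA, the TATA box TATAAA, the E-box CACGTG or the GC box GGGCGG was present in either window. Among the promoter windows of 250 bases these patterns occur in 2.98%, 7.02%, 9.56%, 12.4%, 6.02% and 32.7%, in the order named.

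Library totals were 31317989 to 38536732 counts, with 15678 to 16377 genes detected, and 3 reads were worth between 0.0786 and 0.102 CPM, the unit of reads scaled to a common library size of 1000000. The libraries standing furthest from their groups in a principal component analysis were antiPD1 replicate 3, at 79.4 on component 1 where its group mates had 17.2 and 5.96, and IFNa replicate 1, at 57.3 on component 2 where its mates had -9.40 and -12.2. Alb, the hepatocyte albumin gene, was abundant at 6865 to 15964 CPM, which does not tell the liver label from the hepatoma line label. The 14 macrophage and monocyte markers were also above 0 in every library, as were the 10 T cell and 10 neutrophil markers, although the libraries carry the label of a cell line. Summed macrophage marker CPM was 430.0 to 729 in IFNa, 1232 to 4905 in antiPD1, 1622 to 2019 in combination and 385 to 685 in untreated libraries. Summed CPM of the 16 adult hepatocyte markers other than Alb was 403 to 1412 in IFNa, 407 to 3300 in antiPD1, 484 to 2022 in combination and 288 to 542 in untreated libraries, with none at 0. Pancreatic acinar markers were uneven within 2 groups. Their mean log2 CPM over 8 genes was 2.92, 2.11 and -1.81 in combination and -1.85, 2.13 and 1.52 in untreated libraries. It was -1.80 to -1.53 in IFNa and -1.86 to -1.63 in antiPD1. The source of these reads was not tested. In bulk RNA, fewer cells of a type and less RNA per cell cannot be told apart.

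**Figure D1:**
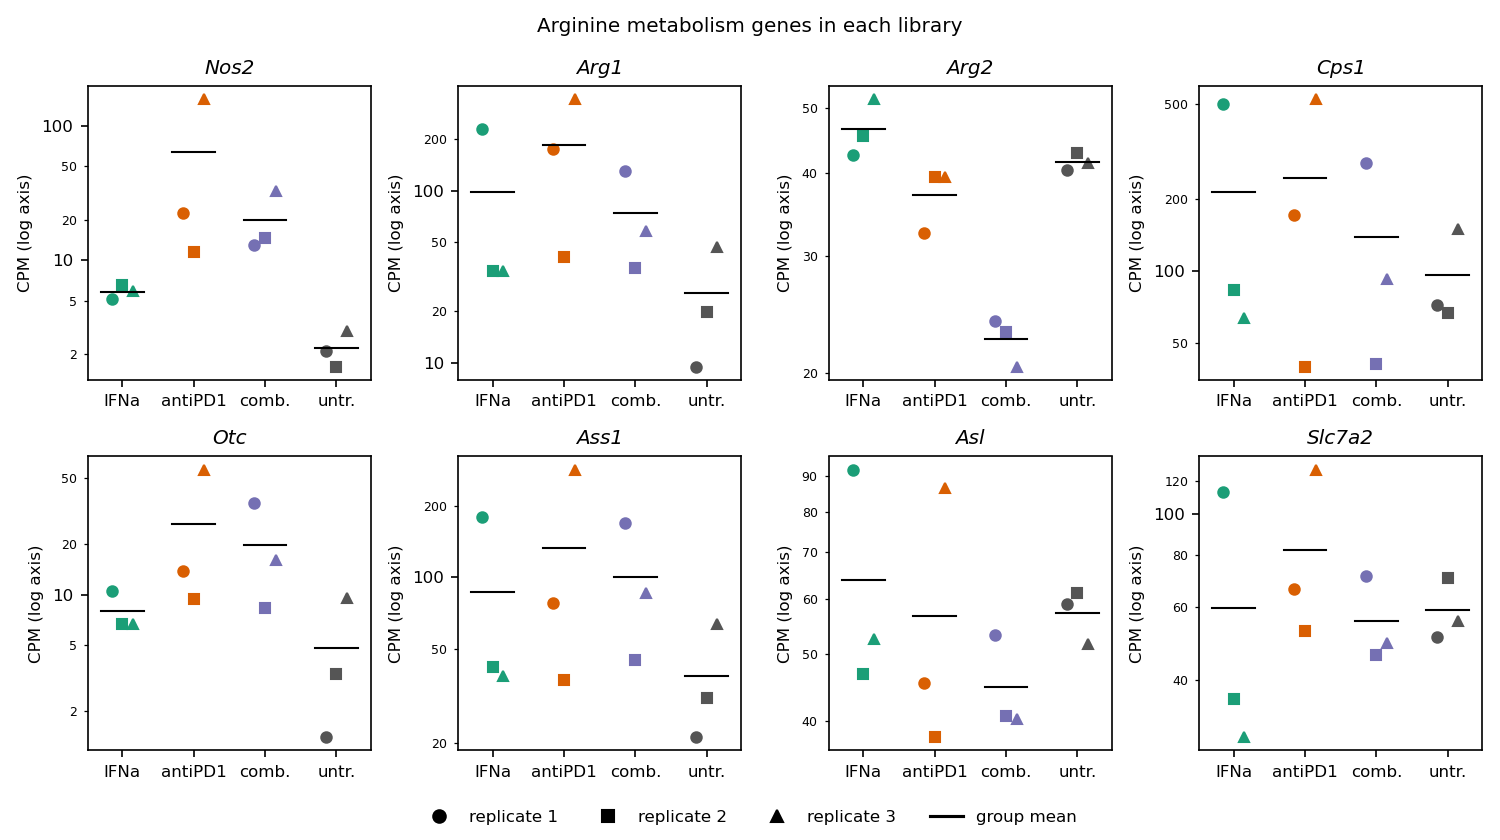
CPM of each gene in each library on log axes, which differ between panels (comb., combination; untr., untreated; bars are group means of 3 libraries). Nos2 in antiPD1 and combination libraries lies above all 3 untreated libraries, Arg2 in combination libraries lies below every other library, and antiPD1 replicate 3 is the highest library for Nos2, Arg1, Cps1, Otc, Ass1 and Slc7a2.

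Nos2, the inducible nitric oxide synthase, was the gene with the widest range, from 1.62 CPM in untreated replicate 2 to 157 CPM in antiPD1 replicate 3. It rose in antiPD1 and in combination libraries. Nos2 had 5.13, 6.58 and 5.87 CPM in IFNa, 22.7, 11.4 and 157 CPM in antiPD1, 13.0, 14.6 and 32.6 CPM in combination and 2.11, 1.62 and 2.99 CPM in untreated libraries, each in the order of replicates 1 to 3. None of the treated groups overlapped the untreated libraries, and the antiPD1 mean rested mostly on replicate 3. Among all genes tested, such a lack of overlap with untreated held for 10.2% in IFNa, 36% in antiPD1 and 49.5% in combination, and among the 8 it held for 1, 2 and 2 (Nos2, with Arg2 as the second). The counts behind these values were 48 to 98 reads in untreated libraries and 4837 reads in antiPD1 replicate 3.

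Differences were fitted with edgeR's quasi-likelihood test and called at 0.05 after Benjamini-Hochberg adjustment across the 14330 genes tested; they are given as log2 fold changes ± SE. Since the genes were listed with results known, the p-values describe these libraries and are no independent evidence. They also measure only the spread between these libraries, since nothing in the labels ties replicates to separate animals or cultures. Nos2 was 4.82 ± 0.91 higher in antiPD1 than in untreated libraries (adjusted p = 0.0198), a 28.3-fold difference, and 3.16 ± 0.85 higher in combination (adjusted p = 0.0397), an 8.92-fold difference. In IFNa it was 1.38 ± 0.83 higher and did not pass (adjusted p = 0.885). It was the 1 gene of the 8 that passed in antiPD1, where 14.8% of all genes tested passed (9.76% higher and 5.08% lower), and with Arg2 it made 2 of 8 that passed in combination, where 12.6% did (7.58% higher and 5% lower).

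Without antiPD1 replicate 3 the antiPD1 difference was 2.93 (adjusted p = 0.0326), and it did not pass without untreated replicate 1 (adjusted p = 0.0941) or untreated replicate 2 (adjusted p = 0.0892). Nor did it pass in limma without a filter, or with the antiPD1 and untreated libraries fitted alone, where 0 of all genes passed. The combination call was lost without any 1 of the 3 combination or the 3 untreated libraries and without IFNa replicate 2 or 3 (adjusted p from 0.0527 to 0.148). Macrophage markers moved with Nos2: 13 of 14 rose in antiPD1 and 8 of 14 in combination, with 0 in IFNa (unadjusted p below 0.05 for 1, and 0 called by DESeq2 or limma). With the mean log2 CPM of these markers as a covariate, an alternative chosen after seeing the data, the Nos2 difference was 0.96 in antiPD1 (adjusted p = 0.782) and 0.25 in combination (adjusted p = 0.931), and 0 of 14330 genes passed in either comparison. Neutrophil markers, which can also accompany Nos2, summed to 46.3 to 97.7 CPM in IFNa, 113 to 232 in antiPD1, 130.1 to 221 in combination and 32.1 to 52.6 in untreated libraries, and their part in the Nos2 result was not tested. Per 1000 CPM of summed macrophage markers, Nos2 stood at 8.05 to 11.9 CPM in IFNa, 9.29 to 32.0 in antiPD1, 6.44 to 17.9 in combination and 4.22 to 4.65 in untreated libraries. The treated libraries all lay above the untreated ones on this ratio too, which was not tested.

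Arg2, the mitochondrial arginase found in many tissues outside the urea cycle, fell in combination libraries, and its replicates lay close together in every group. It had 42.5, 45.4 and 51.6 CPM in IFNa, 32.5, 39.4 and 39.4 CPM in antiPD1, 23.9, 23.0 and 20.4 CPM in combination and 40.4, 42.8 and 41.4 CPM in untreated libraries. All 3 combination libraries lay below all 9 others. Combination libraries were -0.89 ± 0.11 on the log2 scale from untreated (adjusted p = 0.00738), or 0.541 times their level, and -1.05 ± 0.11 from IFNa (adjusted p = 0.0105).

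In combination against antiPD1, Arg2 was -0.72 ± 0.11 with no overlap, a separation that 14.2% of all genes showed, and its unadjusted p of 4.95e-05 did not pass the adjustment in edgeR (adjusted p = 0.709) but did in DESeq2 (adjusted p = 0.000131). In antiPD1 alone it was -0.16 ± 0.11 (adjusted p = 0.319) and in IFNa 0.16 ± 0.11 (adjusted p = 0.885) from untreated. The fall in combination passed without each of the 12 libraries in turn (adjusted p from 0.00296 to 0.0436). That against IFNa was lost without combination replicate 2 (adjusted p = 0.0601) or combination replicate 3 (adjusted p = 0.0558). Vti1b, the SNARE gene whose exons overlap Arg2, differed by 0.02 ± 0.14 between combination and untreated libraries (adjusted p = 0.915). With the macrophage marker covariate the Arg2 difference was -1.03 in combination against untreated, which did not pass (adjusted p = 0.161). As for Nos2, that covariate and the treatment cannot be told apart here.

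Arg1, the cytosolic arginase of hepatocytes and of alternatively activated macrophages, spread widely within each group, and no difference from untreated passed in edgeR. It had 227, 33.9 and 33.9 CPM in IFNa, 174, 41.2 and 338 CPM in antiPD1, 129.7, 35.3 and 58.6 CPM in combination and 9.50, 19.7 and 47.1 CPM in untreated libraries. Each treated group overlapped the untreated libraries, because untreated replicate 3 lay above the lowest library of each. The fitted differences from untreated were 1.95 ± 0.96 in IFNa (adjusted p = 0.885), 2.86 ± 0.99 in antiPD1 (adjusted p = 0.0745) and 1.55 ± 0.95 in combination (adjusted p = 0.285). The antiPD1 difference passed in DESeq2 (adjusted p = 0.0276), without IFNa replicate 1 (adjusted p = 0.0411) and without antiPD1 replicate 2 (adjusted p = 0.0400), while without antiPD1 replicate 3 it was 2.08 (adjusted p = 0.246). Without IFNa replicate 1 the IFNa difference was 0.41, and without combination replicate 1 the combination difference was 0.88.

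The balance of the arginases was read from deposited FPKM, a level per kilobase of transcript meant for comparing genes. The transcript lengths used were not named, and levels between genes depend on them. Arg1 over Arg2 was 4.499, 0.6245 and 0.584 in IFNa, 4.51, 0.899 and 7.64 in antiPD1, 4.62, 1.33 and 2.49 in combination and 0.2105, 0.396 and 1.01 in untreated libraries. Combination libraries all had more Arg1 than Arg2, and all exceeded the untreated ratios. IFNa and antiPD1 overlapped the untreated range, and no test was made of the ratio.

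The enzymes of the urea cycle proper differed mainly between single libraries. Cps1, carbamoyl phosphate synthetase and the entry step in mitochondria, had 499, 83.2 and 63.9 CPM in IFNa, 172, 39.95 and 524 CPM in antiPD1, 283, 41.1 and 93.1 CPM in combination and 72.3, 67.0 and 151 CPM in untreated libraries. Its differences from untreated were 1.15 ± 1.02 in IFNa, 1.34 ± 1.02 in antiPD1 and 0.52 ± 1.0 in combination (adjusted p = 0.895, 0.375 and 0.751), and the groups overlapped. Without IFNa replicate 1 the first of these was -0.39, without antiPD1 replicate 3 the second was 0.14, and without combination replicate 1 the third was -0.53.

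Otc, the ornithine transcarbamylase that makes citrulline, had 10.5, 6.63 and 6.68 CPM in IFNa, 13.8, 9.42 and 56.0 CPM in antiPD1, 35.3, 8.32 and 16.1 CPM in combination and 1.39, 3.35 and 9.56 CPM in untreated libraries. Untreated replicate 3 overlapped the lower libraries of every treated group. Otc differed from untreated by 0.73 ± 0.80 in IFNa (adjusted p = 0.907), 2.46 ± 0.83 in antiPD1 (adjusted p = 0.0684) and 2.06 ± 0.82 in combination (adjusted p = 0.116). The antiPD1 difference passed in DESeq2 (adjusted p = 0.0247), without antiPD1 replicate 2 (adjusted p = 0.0412) and without untreated replicate 3 (adjusted p = 0.0325), while without antiPD1 replicate 3 it was 1.28 (adjusted p = 0.319). The combination difference was 3.07 (adjusted p = 0.0453) without untreated replicate 3 and 1.35 (adjusted p = 0.356) without combination replicate 1.

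Ass1, argininosuccinate synthase and the step that also recycles citrulline for nitric oxide synthesis, had 180.35, 41.8 and 38.4 CPM in IFNa, 77.8, 36.7 and 285 CPM in antiPD1, 169, 44.9 and 85.9 CPM in combination and 21.1, 30.97 and 63.3 CPM in untreated libraries. The groups overlapped. The differences were 1.17 ± 0.84 in IFNa, 1.79 ± 0.85 in antiPD1 and 1.38 ± 0.84 in combination (adjusted p = 0.885, 0.166 and 0.285). Without antiPD1 replicate 3 the second was 0.58, without IFNa replicate 1 the first was 0.06, and without combination replicate 1 the third was 0.77.

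Asl, argininosuccinate lyase, had 91.9, 46.8 and 52.6 CPM in IFNa, 45.4, 38.0 and 86.7 CPM in antiPD1, 53.2, 40.7 and 40.3 CPM in combination and 59.0, 61.1 and 51.7 CPM in untreated libraries. Its highest and lowest libraries differed 2.42-fold, against 13.5-fold for Ass1, the enzyme of the step before. Its differences from untreated were 0.16 ± 0.31 in IFNa, -0.01 ± 0.31 in antiPD1 and -0.36 ± 0.31 in combination (adjusted p = 0.945, 0.981 and 0.460). Without antiPD1 replicate 3 the second was -0.44, and without IFNa replicate 1 the first was -0.20.

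Slc7a2, the cationic amino acid transporter CAT2 that carries arginine into hepatocytes and activated macrophages, had 113, 36.0 and 29.1 CPM in IFNa, 66.2, 52.5 and 128 CPM in antiPD1, 71.2, 45.9 and 49.1 CPM in combination and 50.8, 70.3 and 55.3 CPM in untreated libraries. IFNa replicate 1 and antiPD1 replicate 3 were the highest libraries, as for Arg1, Cps1, Ass1 and Asl. The differences were 0.02 ± 0.48, 0.48 ± 0.48 and -0.09 ± 0.48 for IFNa, antiPD1 and combination against untreated (adjusted p = 0.997, 0.507 and 0.918). Without IFNa replicate 1 the first was -0.85, without antiPD1 replicate 3 the second was 0.028, and without combination replicate 1 the third was -0.31.

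Adult hepatocyte markers moved with Arg1, Cps1, Otc and Ass1 from library to library. Their mean log2 CPM was 5.67, 4.30 and 4.25 in IFNa, 5.03, 4.08 and 7.15 in antiPD1, 6.28, 4.12 and 5.10 in combination and 3.26, 3.83 and 4.72 in untreated libraries. In each treated group, the library highest in these markers was also the highest for Arg1, Cps1, Otc and Ass1, and untreated replicate 3 was the highest of its group for all of them. Asl was highest in the same treated libraries, but untreated replicate 3 was the lowest of its group for Asl (51.7 CPM). None of the 17 markers passed in the antiPD1 or the combination comparison with edgeR, where 8 and 4 had an unadjusted p below 0.05 (33.9% and 31.8% of all genes), DESeq2 called 3 and 0, and limma called 0 in both. With the mean of these markers as a covariate, chosen after seeing the data, the antiPD1 differences from untreated were 1.11 for Arg1, 0.92 for Otc, -0.11 for Ass1 and -1.06 for Cps1 (adjusted p = 0.181, 0.138, 0.808 and 0.173), and 3.0 for Nos2 (adjusted p = 0.0726). The combination differences were 0.23 for Arg1, 0.94 for Otc, 0.051 for Ass1 and -1.40 for Cps1 (adjusted p = 0.777, 0.0945, 0.899 and 0.0650). The markers themselves had positive differences in 17 of 17 in antiPD1 and 16 of 17 in combination (medians 1.77 and 1.66). This covariate and the treatment therefore cannot be told apart here.

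**Figure D2:**
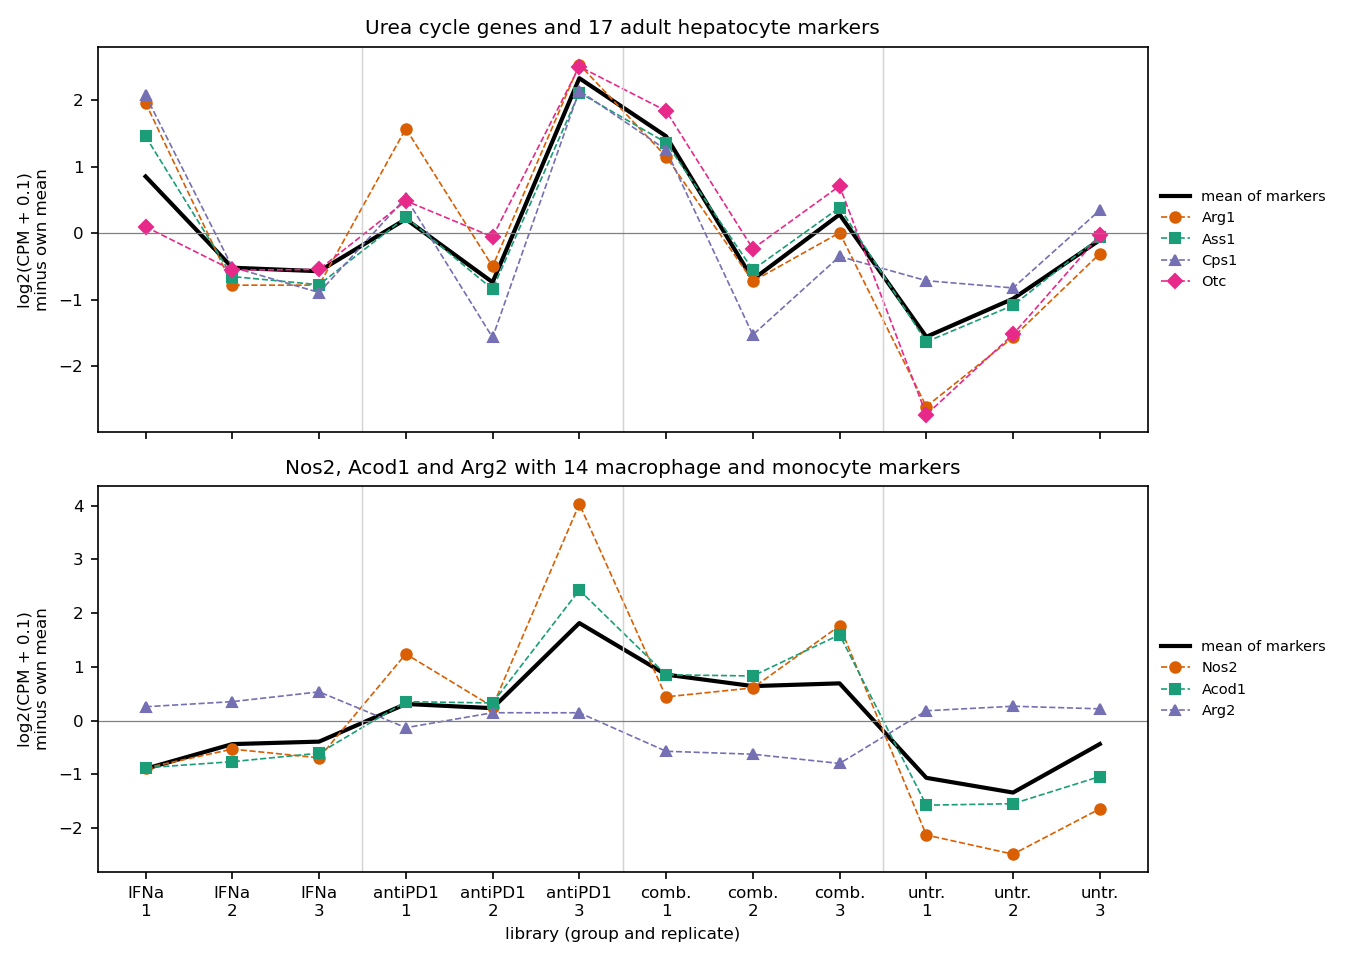
Log2(CPM + 0.1) of single genes and the mean over marker genes in each library, each set against its own mean over the 12 libraries (x axis: group and replicate; comb., combination; untr., untreated; lines join libraries for reading only). Above, Arg1, Ass1, Cps1 and Otc lie near the mean of 17 hepatocyte markers, with IFNa replicate 1, antiPD1 replicate 3 and combination replicate 1 high; below, Nos2 and Acod1 follow the 14 macrophage markers with a wider range, and Arg2 is lowest in the 3 combination libraries.

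By level per length (FPKM), the order of the genes depended on the group. In IFNa the means were highest for Arg1 (43.9 FPKM, range 15.5 to 100.1) and Ass1 (37.8, range 17.7 to 77.2), then Cps1, Arg2, Asl, Slc7a2, Otc and Nos2. In antiPD1 Arg1 led with 84.7 FPKM (19.6 to 152), then Ass1 with 58.5, and Nos2 stood at the fifth place with 9.62 FPKM (1.83 to 23.4). In combination Ass1 led with 47.4 FPKM (21.4 to 79.9), ahead of Arg1 with 36.5, and Nos2 was lowest with 3.35 (2.14 to 5.38). In untreated libraries Arg2 led with 21.5 FPKM (20.3 to 22.0), ahead of Ass1 with 16.8, Cps1 with 12.6 and Arg1 with 11.7, and Nos2 was lowest with 0.364 (0.253 to 0.487).
Most neighbours in these orders overlapped between libraries. The steps without overlap were Arg2 above Asl, Slc7a2 above Otc and Otc above Nos2 in IFNa, Arg2 above Slc7a2 in combination, and Slc7a2 above Otc in untreated libraries. In antiPD1 no neighbours were separate. These orders also depend on the transcript lengths behind the FPKM, which were not named.

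For IFNa given on top of antiPD1, no difference passed in edgeR. In combination against antiPD1, all 8 fitted differences were negative (median -0.65, against -0.02 over all genes tested), and 0 passed in edgeR, where 0% of all genes did. Of the 8, 1 had an unadjusted p below 0.05, as did 4.76% of all genes, and was called by DESeq2 (Arg2), while limma called 0. Nos2 was -1.67 ± 0.78 (adjusted p = 0.997) with overlapping groups. The shared sign rested on antiPD1 replicate 3: without that library 5 of the 8 were positive, with Nos2 at 0.23, Ass1 at 0.79, Asl at 0.092, Otc at 0.77 and Cps1 at 0.38. In the same comparison 16 of 17 hepatocyte, 10 of 10 T cell and 12 of 14 macrophage markers also had negative differences. Of these, 0 passed in edgeR, 0 had an unadjusted p below 0.05 and 0 were called by DESeq2 or limma. In the other lists, 7 of 8 fibroblast and 4 of 8 endothelial markers were negative, but 6 of 10 neutrophil markers were positive. All 7 pancreatic acinar markers tested were positive (median 5.87), with 7 at an unadjusted p below 0.05. DESeq2 called 2 of them, and edgeR and limma called 0. In combination against IFNa, Arg2 fell as given above, 1 of 8 where 0.956% of all genes passed. Nos2 was 1.77 ± 0.80 higher with no overlap (13.0 to 32.6 CPM against 5.13 to 6.58 CPM) but did not pass (adjusted p = 0.213), and it passed without antiPD1 replicate 3 (adjusted p = 0.0267). Groups did not overlap in 36.8% of all genes in that comparison.

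The interaction, the log2 effect of both agents beyond the sum of the single effects, was negative for all 8 genes, and 0 passed in edgeR, where 0% of all genes did. Of the 8, 3 had an unadjusted p below 0.05, as did 6.06% of all genes. The fitted interaction was also negative for 16 of 17 hepatocyte, 10 of 10 T cell and 14 of 14 macrophage markers. It was negative for 8 of 8 fibroblast, 8 of 8 endothelial and 8 of 10 neutrophil markers too. In each of these lists 0 markers had an unadjusted p below 0.05. All 7 pancreatic acinar markers tested were positive (median 11.05), with 7 at an unadjusted p below 0.05. DESeq2 called 6 of them, and edgeR and limma called 0. The interaction values of the 8 genes share the same antiPD1, IFNa and untreated libraries. Arg2 had the smallest p, with -0.89 ± 0.16 (unadjusted p = 0.000162, adjusted p = 0.370), and DESeq2 called it (adjusted p = 0.000659). Nos2 had -3.05 ± 1.13 (unadjusted p = 0.0217, adjusted p = 0.799) and Arg1 -3.25 ± 1.34 (unadjusted p = 0.0341, adjusted p = 0.799); DESeq2 and limma called neither. With both outlying libraries (antiPD1 replicate 3, IFNa replicate 1) omitted, the interaction was above 0 for Ass1, Asl, Otc, Cps1 and Slc7a2.

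**Figure D3:**
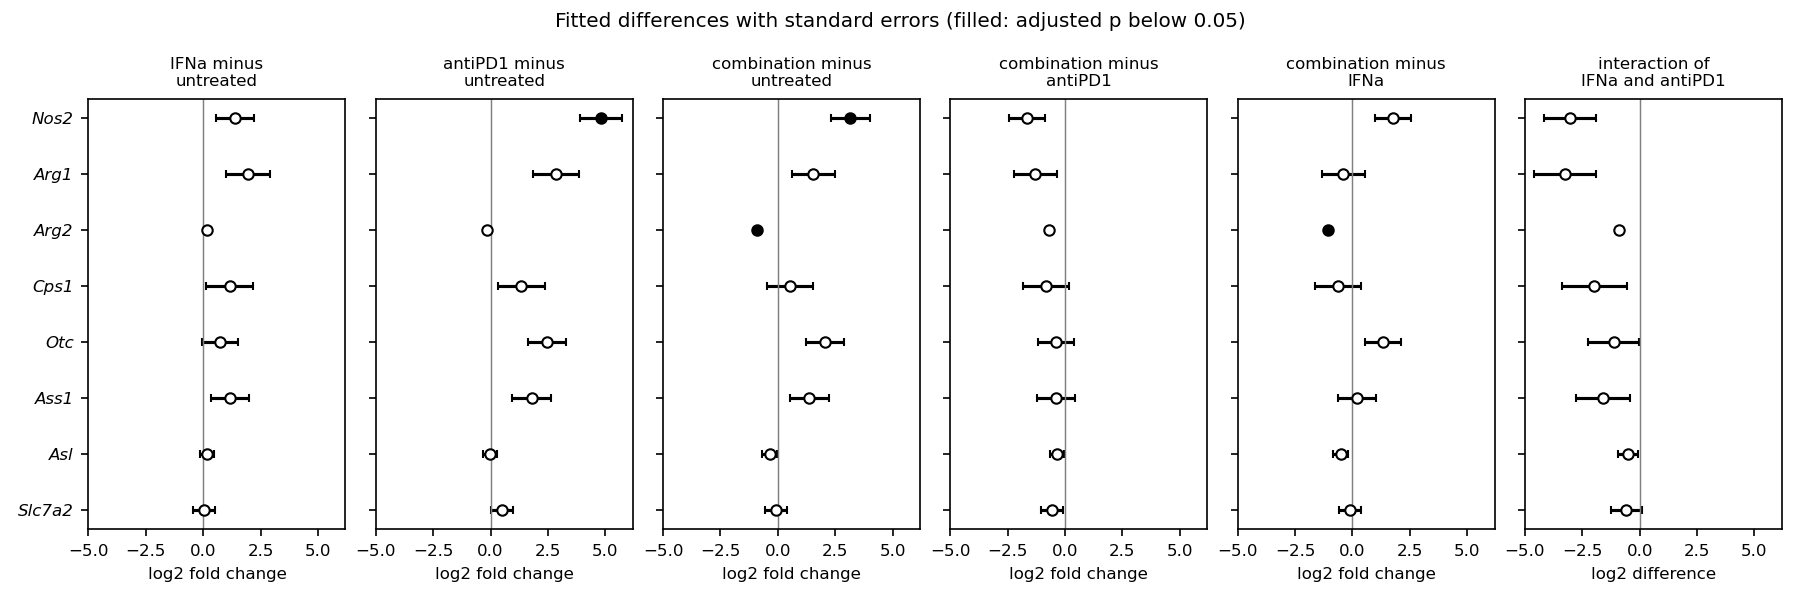
Log2 fold changes of the 8 genes in 5 pairwise comparisons and the interaction, with standard errors from edgeR; filled points had an adjusted p below 0.05, and the bars of Arg2 (0.11 to 0.16) are narrower than its points. Nos2 is filled in antiPD1 and combination against untreated, and Arg2 is filled in combination against untreated and against IFNa.

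In IFNa against untreated, all 8 genes had a positive fitted difference (median 0.94, against 0.01 over all genes), yet 0 passed in edgeR, where 0% of all genes did, with 0 below an unadjusted p of 0.05 (5.59% of all genes) and 0 called by DESeq2 or limma. Nos2 was the single gene of the 8 without overlap. Asl, Cps1 and Slc7a2 turned negative without IFNa replicate 1.

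The genes whose course over the 12 libraries lay nearest to each of the 8 were found by the mean absolute difference of log2(CPM + 0.1), each gene centred on its own mean, among 12744 others with a mean of at least 1 CPM. This is a description over libraries that share groups, and no test was made. Nearest to Nos2 were Serpina1e (0.47), an alpha-1-antitrypsin gene with near-identical copies that may share reads, Acod1 (0.48), the itaconate-making enzyme of activated macrophages, and Serpina3f (0.50). Nearest to Arg1 was Slc10a1 (0.27), the hepatocyte bile acid uptake transporter, and nearest to Cps1 was Hal (0.21), the histidine-degrading enzyme; both are also among the hepatocyte markers above. Otc lay nearest to the class I gene H2-Q10 (0.12) and the gluconeogenic Fbp1 (0.15), Ass1 to the pyrimidine-degrading Dpyd (0.18) and the methyltransferase Gnmt (0.18), and Asl to Ahcy (0.11), the S-adenosylhomocysteine hydrolase. Arg2 lay nearest to Baiap2l1 (0.14), Tnnt2 (0.14) and Efna1 (0.15), and Slc7a2 to Arl4a (0.17). The measure is not scaled, so genes that vary little lie near each other whatever their course. Against their own means the 8 deviated by 1.39 for Nos2, 1.21 for Arg1, 1.06 for Cps1, 0.94 for Otc, 0.93 for Ass1, 0.46 for Slc7a2, 0.35 for Arg2 and 0.30 for Asl. Within the 8, the pairs that lay nearer to each other than either gene lay to a flat line included Arg1 with Ass1 (0.43), Ass1 with Cps1 (0.44) and Ass1 with Otc (0.48). Nos2 with Otc (0.85) and Nos2 with Arg1 (1.02) also met this mark, at larger distances.

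Baiap2l1, an actin-regulating adaptor, fell with Arg2 in combination against untreated libraries (-0.89 ± 0.13, adjusted p = 0.00861). So did Efna1, an ephrin ligand (-0.93 ± 0.16, adjusted p = 0.0141), and Tnnt2, the cardiac troponin T gene (-0.76 ± 0.15, adjusted p = 0.0179). They were picked for their likeness to Arg2, so these falls are no separate evidence.

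Other genes of nitric oxide signalling changed in both directions in antiPD1 and in combination. Of 15 tested, 3 rose and 2 fell in antiPD1 (median 0.44) and 3 rose and 3 fell in combination (median 0.42), against a median of -0.01 over all genes in each. Of all genes tested, 9.76% rose and 5.08% fell in antiPD1, and 7.58% rose and 5% fell in combination, shares that apply to each list below. Risers in both were the neuronal synthase Nos1, at 1.24 ± 0.37 CPM in antiPD1, 1.41 ± 0.31 in combination and 0.477 ± 0.189 in untreated libraries (SD, n = 3), and the nitric oxide receptor subunits Gucy1a3 and Gucy1b3. Gucy1b3, a subunit of soluble guanylate cyclase, was 1.39 ± 0.36 higher in antiPD1 (adjusted p = 0.0320) and 1.58 ± 0.36 in combination (adjusted p = 0.0256). Fallers in both were Nostrin, which traffics the endothelial synthase, at -0.76 ± 0.13 and -0.83 ± 0.13 (adjusted p = 0.0191 and 0.0109), and Nosip, which binds it, at -0.27 ± 0.08 and -0.37 ± 0.08. Gch1, the first enzyme of tetrahydrobiopterin synthesis, fell in combination (-0.40 ± 0.12, adjusted p = 0.0482); it and Nos1 complete the counts, and with Nos3 they were named after their values were seen. The endothelial synthase Nos3 did not pass in either, with 7.84 ± 5.12 CPM in antiPD1, 9.18 ± 0.73 in combination and 5.78 ± 5.31 in untreated libraries. Stromal markers differed in the direction of the risers, opposite to the fallers Nostrin, Nosip and Gch1. Of 8 fibroblast markers, 8 had positive differences in antiPD1 (median 1.42, 3 rose) and 8 in combination (median 1.14, 0 rose, 4 at an unadjusted p below 0.05, 3 called by DESeq2 and 2 by limma). Their sum was 1488 to 4188 CPM in antiPD1, 1534 to 1889 in combination and 456 to 1695 in untreated libraries. Of 8 endothelial markers, 8 had positive differences in both (medians 1.09 and 0.96) and 0 rose in edgeR, with 1 and 2 at an unadjusted p below 0.05, 1 called by DESeq2 in each and 0 by limma. Their sum was 106 to 471 CPM in antiPD1, 236 to 353 in combination and 114 to 257 in untreated libraries. No fibroblast or endothelial marker was at 0 in any library, and their part in the nitric oxide gene results was not tested.

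Among inducers of Nos2 and genes induced with it, every gene that passed rose in antiPD1 and in combination. Of 15 tested, 6 rose and 0 fell in antiPD1 (median 0.67), and 4 rose and 0 fell in combination (median 0.94). Ifng, the interferon made by T and NK cells, had 1.81, 2.69 and 4.87 CPM in antiPD1, 2.40, 2.97 and 3.86 CPM in combination and 0.486, 0.474 and 0.580 CPM in untreated libraries. It was 2.59 ± 0.52 higher in antiPD1 (adjusted p = 0.0207) and 2.57 ± 0.52 in combination (adjusted p = 0.0188), with no overlap. Acod1 was 2.83 ± 0.55 and 2.57 ± 0.54 higher (adjusted p = 0.0198 and 0.0208), and the cytokine Tnf 1.69 ± 0.46 and 2.11 ± 0.46. Ptgs2, the inducible cyclooxygenase, rose in antiPD1 (3.55 ± 0.92, adjusted p = 0.0313) and was 1.98 ± 0.87 higher in combination without passing (adjusted p = 0.148). The 10 T cell markers moved with these genes: 10 rose in antiPD1 and 4 in combination. They summed to 13.2 to 45.4 CPM in IFNa, 56.7 to 281 in antiPD1, 88.6 to 115 in combination and 26.1 to 31.3 in untreated libraries, and their part in the rise of these genes was not tested.

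Genes of alternative macrophage activation, listed as companions of Arg1, numbered 3 risers of 14 in antiPD1 (median 0.71) and 1 of 14 in combination (median 0.41), the second of these near the 7.58% of all genes that rose. The macrophage markers moved with them, with 13 of 14 and 8 of 14 risers, and Clec10a and Mrc1 are themselves expressed by macrophages; the part of these markers was not tested. The lectin Clec10a rose in both, with 3.99 ± 1.41 CPM in antiPD1, 3.80 ± 0.65 in combination and 1.30 ± 0.49 in untreated libraries. The interleukin receptor chain Il13ra1 (1.46 ± 0.36, adjusted p = 0.0276) and the mannose receptor Mrc1 (1.17 ± 0.34, adjusted p = 0.0443) rose in antiPD1. In combination they were 1.19 ± 0.35 (adjusted p = 0.0509) and 0.70 ± 0.34 (adjusted p = 0.181). Of the 14 genes, 4 had negative fitted differences in antiPD1 and 6 in combination, and 0 fell in either.

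Of 10 liver regulators of the urea cycle, 1 rose and 2 fell in antiPD1, and 0 rose and 2 fell in combination (medians -0.07 and 0.07). Over all genes 9.76% rose and 5.08% fell in antiPD1, and 7.58% rose and 5% fell in combination, so the 1 riser is at that share. Hnf4a, the nuclear receptor that drives hepatocyte genes, had 241 ± 19.4 CPM in antiPD1, 199 ± 20.3 in combination and 377 ± 46.7 in untreated libraries. It fell by 0.65 on the log2 scale in antiPD1 (adjusted p = 0.0389) and by 0.92 in combination (adjusted p = 0.0179), in the comparisons where Otc and Ass1 had positive differences that did not pass. Ppargc1a, a coactivator induced by fasting, was 0.92 ± 0.27 higher in antiPD1 (adjusted p = 0.0454) and 0.14 ± 0.27 in combination (adjusted p = 0.749).

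Genes that feed the urea cycle or take up its ornithine gave 0 calls of 15 in edgeR in antiPD1 and in combination (medians -0.13 and -0.17), with 2 and 4 at an unadjusted p below 0.05, 1 and 2 called by DESeq2 and 0 by limma. Glud1, the glutamate dehydrogenase that releases ammonia, was -0.59 ± 0.18 in combination (adjusted p = 0.0533), and the glutaminase Gls2 was -0.42 ± 0.13 (adjusted p = 0.0525). Of 11 tested genes of cationic amino acid transport and arginine sensing (medians 0.15 and 0.25), the lysosomal arginine sensor Slc38a9 rose (0.58 ± 0.16 in antiPD1 and 0.71 ± 0.16 in combination) and the arginyltransferase Ate1 fell (-0.38 ± 0.10 and -0.47 ± 0.10). That is 1 riser and 1 faller of 11 in each, the riser near the 9.76% and 7.58% of all genes that rose. Of 16 polyamine genes (medians 0.02 and -0.13), the antizyme inhibitor Azin1 fell in antiPD1 (-0.29 ± 0.09, adjusted p = 0.0477) and the spermine oxidase Smox fell in combination (-0.69 ± 0.15, adjusted p = 0.0219). In each, 1 of 16 is near the 5.08% and 5% of all genes that fell. Odc1, the ornithine decarboxylase, did not pass, with 131 ± 4.90 CPM in antiPD1, 137 ± 7.29 in combination and 115 ± 13.2 in untreated libraries. Of 5 creatine genes (medians 0.12 and 0.38), the brain-type kinase Ckb rose in both (1.59 ± 0.41 and 1.5 ± 0.41), and Gatm, which takes the amidino group from arginine, was 1.19 ± 0.39 and 1.25 ± 0.39 without passing (adjusted p = 0.0637 and 0.0587).

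**Figure D4:**
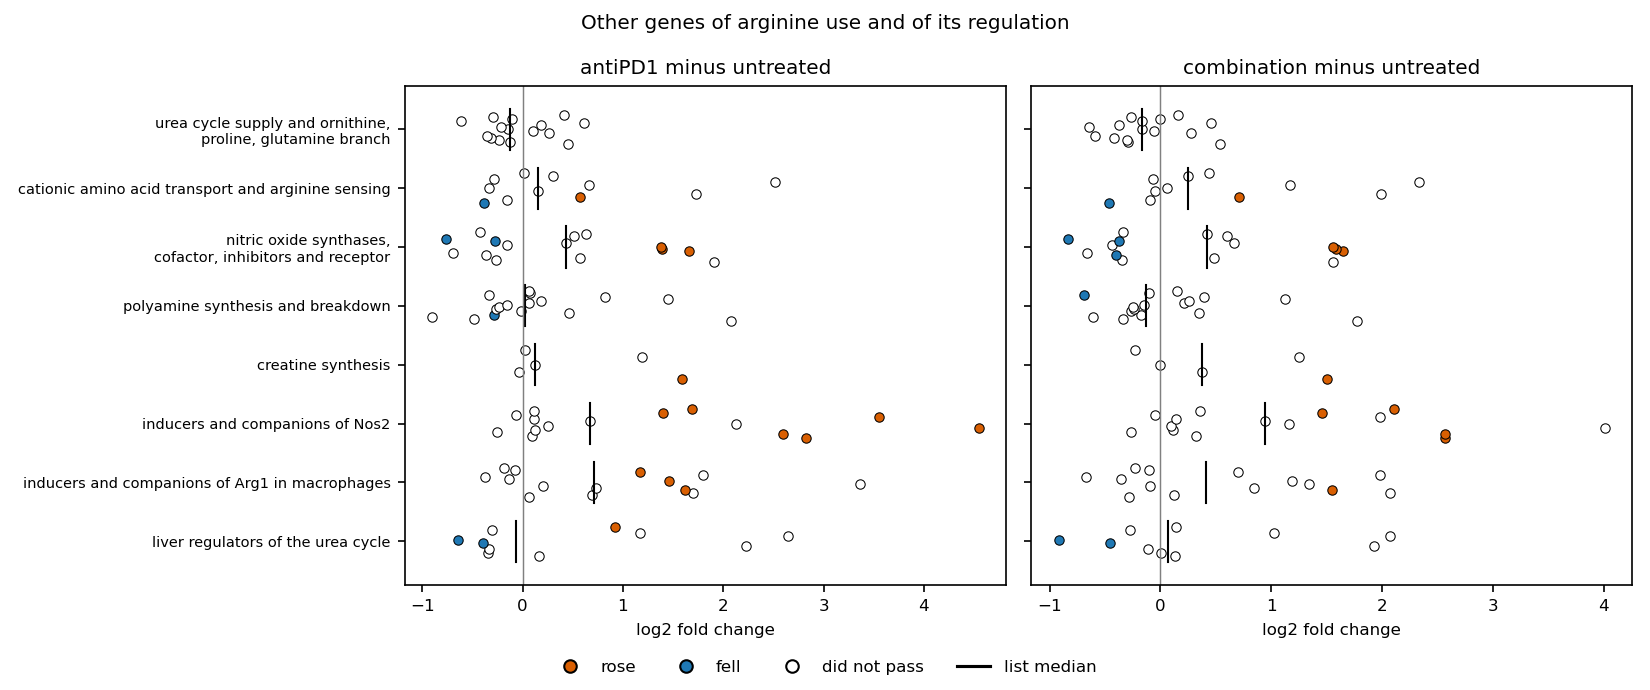
Log2 fold changes of single genes in 8 lists of arginine use and its regulation, in antiPD1 and combination against untreated libraries; each point is a gene, filled points had an adjusted p below 0.05 (orange rose, blue fell), and the bar is the list median. The filled points of the Nos2 inducers all lie above 0, and no gene of the urea cycle supply list is filled.

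In IFNa, 0 genes of these 8 lists passed in edgeR; 4 had an unadjusted p below 0.05, and DESeq2 and limma called 0. The calls in the other comparisons rested on particular untreated libraries: without untreated replicate 1, or without untreated replicate 2, 0 genes of the 8 lists passed in antiPD1. Over all genes tested, 5 passed in antiPD1 without untreated replicate 1, against 2126 with all libraries. The loss was thus not particular to these lists. Without antiPD1 replicate 3, 1 nitric oxide gene and 1 Nos2 inducer passed. In combination, 0 or 1 gene of each list passed when any 1 combination library, or untreated replicate 1 or 2, was left out. Over all genes tested, as few as 33 passed in combination (without combination replicate 3), against 1803 with all libraries. Of all genes on the lists that passed in combination against untreated, Arg2 was the gene that passed without each of the 12 libraries.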

How the data were processed

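Total RNA from 12 libraries (4 groups of 3) was sequenced, and the authors deposited whole-number read counts and FPKM values per gene, per the file headers. The submitters' processing notes name HISAT2 2.1.0, HTSeq, Cufflinks and the mm10 build; which tool made which values, the annotation and the strand setting were not named there. Libraries were grouped by the treatment in the labels. The members and lists were chosen with earlier results of these data known. From the deposited counts, edgeR 4.0.16 (R 4.3.3) gave TMM-normalised CPM and quasi-likelihood F tests over all 12 libraries with 1 mean per group, for 14330 of 21878 genes kept by filterByExpr (minimum count 10), with Benjamini-Hochberg adjustment over those genes and a threshold of 0.05. Library totals of 31317989 to 38536732 counts set a floor of 3 counts at 0.0786 to 0.102 CPM, which covers counting error only.

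The deposited FPKM values served for levels between genes and for limma 3.58.1 on log2(FPKM + 1), kept at 1 FPKM in 3 libraries. A fold change on that scale understates the change of low genes. Alternatives were DESeq2 1.42.0, RLE scaling, no filter on low counts, log2(FPKM + 0.1), unfiltered FPKM, a fit to the groups compared alone, the replicate number as a block, and each library left out. IFNa replicate 1 and antiPD1 replicate 3 were also left out together. Marker covariates (the mean log2 CPM of hepatocyte or of macrophage markers) were added after seeing the data. Of 194 listed genes, 188 were in the table. Besides the 8 genes, each list contributed up to 4 genes with the smallest p in antiPD1 and in combination against untreated (mean of at least 1 CPM), and every gene that passed where 5 or fewer did; some list genes are counted but not reported here by name. The fit was tested on simulated counts with known changes.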

Additional observations from a re-analysis of the deposited data

How the results depend on the processing

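Over all genes tested, the antiPD1 count against untreated (2126) was 3291 in DESeq2, 947, 1046 and 732 in limma with a pseudocount of 1, of 0.1 and without a filter, 0 in the groups compared alone, 87 with the hepatocyte covariate and 0 with the macrophage covariate, and 5 to 3027 with a library left out. The combination count (1803) was 2979, 996 and 1077 in DESeq2 and limma with either pseudocount, 3789 in the groups compared alone, 4200 with both outlying libraries left out, 1062 and 0 with the covariates, and 33 to 2917 with a library left out. Combination against IFNa (137) gave 1650 in DESeq2, 542 with the block, 1132 in the groups alone, 1305 without both outlying libraries, 391 and 0 with the covariates, and 0 to 1452 with a library left out. IFNa (0) gave 32 in DESeq2, 5 without both and 0 to 3 with a library left out. Combination against antiPD1 (0) gave 15 in DESeq2 and 0 to 0, and the interaction (0) gave 55, 2 without both and 0 to 1. Which library or setting caused these shifts beyond its own construction was not tested.

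Of the 8 genes, antiPD1 (1 called) gave 3 in DESeq2, 0 in limma without a filter, in the groups alone and with either covariate, and 0 to 3 with a library left out. Combination (2) gave 1 without the count filter, in limma with a pseudocount of 1 or no filter and with the hepatocyte covariate, 0 with the macrophage covariate, and 1 to 2. Combination against IFNa (1) gave 2 in the groups alone, 0 with the macrophage covariate and 0 to 2. DESeq2 gave 1 in combination against antiPD1 and 1 in the interaction, for which a fit to the groups compared alone does not exist.

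None of the values that changed sign had passed. Without both outlying libraries, IFNa against untreated had Asl at -0.17, Cps1 -0.37 and Slc7a2 -0.82; combination against antiPD1 had Nos2 at 0.23, Ass1 0.79, Asl 0.092, Otc 0.77 and Cps1 0.38. Combination against IFNa had Arg1 at 1.10, Cps1 0.88 and Slc7a2 0.74, and the interaction had Ass1 at 0.71, Asl 0.26, Otc 0.26, Cps1 0.75 and Slc7a2 0.71. With the hepatocyte covariate, IFNa had Asl at -0.17, Cps1 -0.34 and Slc7a2 -0.55, antiPD1 had Ass1 at -0.11, Cps1 -1.06 and Slc7a2 -0.36, and combination had Cps1 at -1.40. Combination against antiPD1 had Ass1 at 0.16 and Otc 0.025, combination against IFNa had Ass1 at -0.093, and the interaction had Ass1 at 0.014, Cps1 0.0058 and Slc7a2 0.20. With the macrophage covariate, IFNa had Slc7a2 at -0.048, antiPD1 had Ass1 at -0.52, Otc -0.31 and Cps1 -0.97, and combination had Ass1 at -0.49, Otc -0.27 and Cps1 -1.37. Combination against antiPD1 had Ass1 at 0.030 and Otc 0.040, and combination against IFNa had Nos2 at -0.54, Ass1 -1.56 and Otc -0.78. In limma with a pseudocount of 0.1, Slc7a2 was -0.18 in IFNa, 0.049 in combination and 0.23 in combination against IFNa, where Arg1 was 0.12; with a pseudocount of 1, filtered or not, these were -0.13, 0.044, 0.18 and 0.11. In the groups alone Asl was 0.015 in antiPD1.

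With a library left out, the ranges that crossed 0 were, for IFNa, Asl -0.20 to 0.35, Cps1 -0.39 to 1.63 and Slc7a2 -0.85 to 0.35, for antiPD1, Asl -0.44 to 0.20, and for combination, Cps1 -0.53 to 0.99 and Slc7a2 -0.31 to 0.051. For combination against IFNa they were Arg1 -1.06 to 1.13, Ass1 -0.41 to 1.31, Cps1 -1.68 to 0.92 and Slc7a2 -0.44 to 0.76. For combination against antiPD1 they were Nos2 -2.21 to 0.23, Ass1 -1.02 to 0.79, Asl -0.56 to 0.092, Otc -1.11 to 0.77 and Cps1 -1.87 to 0.38, and for the interaction Otc -2.15 to 0.012 and Slc7a2 -0.93 to 0.28.

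The labels do not say what the replicate numbers mark, so whether equal numbers are paired is not known. Of 18 pairs with the same number, 9 correlated above 0.1 in their deviations (range -0.284 to 0.579). Pairs with different numbers ranged from -0.664 to 0.559, and correlations above 0.1 were found among them too. With the number as a block, antiPD1 gave 2388 calls and combination 2174, Slc7a2 was -0.15 in IFNa, and no call among the 8 genes changed. The fewest reads behind a value of the 8 genes were 43 for Otc and 48 for Nos2, both in untreated libraries.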

Other observations

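The ratio of Cps1 to Otc, successive mitochondrial steps of the urea cycle, was 8.04 to 36.5 in IFNa, 3.24 to 8.92 in antiPD1, 3.89 to 6.15 in combination and 12.4 to 41.3 in untreated libraries, on deposited FPKM. All antiPD1 and combination libraries lay below all untreated libraries, and the IFNa range overlapped the antiPD1 and untreated ranges. The ratio was looked at after the single genes, and no test was made.

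The ratio of Arg1 to Ass1 was 1.20 to 2.25 in antiPD1, above every other library but IFNa replicate 1 (1.30), and 0.715 to 0.822 in combination, against 0.475 to 0.774 in untreated libraries. Arg1 over Nos2 was 14.6 to 134 in IFNa, 6.51 to 22.6 in antiPD1, 5.41 to 29.5 in combination and 12.2 to 45.5 in untreated libraries, so that the groups overlapped and Arg1 was the higher of the pair in each library.

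Afp, the fetal albumin gene that hepatoma cells express, averaged 8326 CPM over the 12 libraries. It fell by 0.57 on the log2 scale in antiPD1 (edgeR adjusted p = 0.0281) and by 0.76 in combination (adjusted p = 0.0159) against untreated.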
